A study of Mus musculus with 16 samples.

Results

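Genes that build ribosomes were followed across 16 expression arrays of naive mouse T cells with and without Tsc1. The set consists of 46 genes for the RNA polymerase I machinery, the small nucleolar ribonucleoproteins and the assembly factors of both ribosomal subunits, taken from a list and measured by probe sets that name a single gene. A gene with several such probe sets was represented by the one with the highest mean over the 16 arrays. This gave 43 measured members among 17097 measured genes, and Mybbp1a, Utp14a and Gnl3 had no such probe set.

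The 6 groups were all cells sorted as naive from mice of C57BL\6 background. Tsc1-deficient and wild-type CD4 T cells were each measured after 4 h of stimulation with anti-CD3 and anti-CD28 coated on the plate (3 arrays per genotype) and without stimulation, here called 0 h (3 arrays per genotype). Tsc1-deficient and wild-type CD8 T cells were measured at 0 h only, with 2 arrays per genotype. The labels name no group kept for 4 h without the antibodies. In a change from 0 h to 4 h, stimulation therefore cannot be told apart from time in culture. The age of the mice, the way in which Tsc1 was removed and whether animals were pooled are not given in the sources used here, and 1 sentence of the treatment text names HIF1a-deficient mice where every title and genotype entry names Tsc1. Nothing in the labels ties each array of a group to its own mouse, so the p-values rest on array-to-array spread that may be technical.

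Ribosomal RNA is transcribed in the nucleolus by RNA polymerase I, and its precursor is modified, cut and folded by assembly factors and small nucleolar RNAs while ribosomal proteins bind it. The Tsc1 protein, with Tsc2, restrains the kinase complex mTORC1, which promotes growth and is known to act on RNA polymerase I initiation and on translation. T cells leaving quiescence enlarge and raise ribosome production before they divide. The values are log2 signals, a change is a difference of group means on that scale, and ± after a change is its standard error. A gene is called when limma's moderated test gives an adjusted p under 0.05 over all 17097 genes of a comparison.

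Upstream sequences of 6 members are shown, 3 that hold the E-box CACGTG there and 3 chosen by their changes. The E-box is a motif read by Myc and related basic helix-loop-helix factors. The motif is a palindrome, so both strands are covered by 1 search, and no other motif was searched. RefSeq promoter windows of build GRCm38.p6, running from 250 bases before to 50 bases after a gene's start, were found for 39 of the 46 members, with the first window taken where a gene has more than 1. The motif stood in 9 of these 39 windows (23.1%), against 1957 of all 27025 windows (7.24%). Within the 250 upstream bases the counts were 3 of 39 members (7.69%) and 1634 of 27025 (6.05%). The sequences run 5′ to 3′ on the gene's strand and end at the base before the start, and capitals mark the motif. Rrn3 lies at chr16:13780449-13780698 (plus strand), Nop2 at chr6:125131633-125131882 (plus), Imp4 at chr1:34439579-34439828 (plus), Ubtf at chr11:102320863-102321112 (minus), Utp20 at chr10:88826815-88827064 (minus) and Wdr12 at chr1:60098501-60098750 (minus).
Rrn3: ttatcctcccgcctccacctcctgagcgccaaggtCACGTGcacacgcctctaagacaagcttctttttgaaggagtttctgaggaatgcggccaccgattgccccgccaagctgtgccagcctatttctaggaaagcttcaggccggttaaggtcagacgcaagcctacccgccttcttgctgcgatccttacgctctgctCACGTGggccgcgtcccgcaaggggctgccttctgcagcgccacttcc
Nop2: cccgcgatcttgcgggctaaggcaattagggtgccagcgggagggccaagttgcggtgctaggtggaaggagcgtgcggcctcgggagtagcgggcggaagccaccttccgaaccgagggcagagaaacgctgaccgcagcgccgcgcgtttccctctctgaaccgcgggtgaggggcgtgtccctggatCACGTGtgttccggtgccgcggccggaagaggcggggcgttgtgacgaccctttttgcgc
Imp4: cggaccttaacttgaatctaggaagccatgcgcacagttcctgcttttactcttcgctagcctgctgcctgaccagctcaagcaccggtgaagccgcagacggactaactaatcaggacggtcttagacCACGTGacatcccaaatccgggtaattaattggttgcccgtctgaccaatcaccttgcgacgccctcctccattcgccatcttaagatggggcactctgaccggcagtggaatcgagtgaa
Ubtf: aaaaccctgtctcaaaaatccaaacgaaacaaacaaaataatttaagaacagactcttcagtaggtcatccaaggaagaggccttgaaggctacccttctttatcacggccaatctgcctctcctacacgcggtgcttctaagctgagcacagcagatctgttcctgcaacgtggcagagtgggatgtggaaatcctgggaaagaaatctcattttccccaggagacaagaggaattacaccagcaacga
Utp20: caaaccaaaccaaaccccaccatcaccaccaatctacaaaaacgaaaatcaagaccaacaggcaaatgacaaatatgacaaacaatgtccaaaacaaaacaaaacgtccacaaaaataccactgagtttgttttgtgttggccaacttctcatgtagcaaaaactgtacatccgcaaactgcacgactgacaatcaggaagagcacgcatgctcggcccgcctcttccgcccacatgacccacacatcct
Wdr12: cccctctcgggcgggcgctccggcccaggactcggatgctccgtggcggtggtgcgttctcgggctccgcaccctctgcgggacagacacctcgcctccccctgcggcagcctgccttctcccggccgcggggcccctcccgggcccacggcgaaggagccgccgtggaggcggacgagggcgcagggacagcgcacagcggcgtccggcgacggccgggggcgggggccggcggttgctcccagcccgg
The first 3 are the members with an upstream match and were not chosen for their response. Nop2 and Imp4 were not called in wild-type stimulation, while Noc4l, Wdr75 and Nop56, which rose there, had no match in their windows. In Rrn3 the matches begin 215 and 48 bases before the start, in Nop2 at 60 bases and in Imp4 at 121 bases. Ubtf and Utp20 are the matched members that fell most after stimulation of wild-type cells, and Wdr12 is the member that differed most between genotypes, chosen after its values were seen. None of these 3 upstream stretches holds the motif, although the Utp20 window has 1 match after the start. Of the members with a window, the motif was present in 3 of 6 that rose in Tsc1-deficient CD4 cells after stimulation, 2 of 6 that fell and 3 of 24 that were not called. In wild-type CD4 cells it was present in 1 of 4 that rose, 1 of 6 that fell and 6 of 26 that were not called.

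All 43 members had a mean signal above the table's median of 3.36. Their means over the 16 arrays ran from 4.19 for Ncl, whose only single-gene probe set is dim, to 11.7 for Npm1. Levels of different probe sets depend on the probes and are not compared here. As a check of the labels, Tsc1 had signals of 6.42, 6.54 and 6.5 in Tsc1-deficient CD4 cells at 0 h and 7.25, 7.39 and 7.29 in wild-type CD4 cells at 0 h. It was called lower at 0 h (-0.83 ± 0.09, adjusted p = 3.77e-05) and at 4 h (-1.06 ± 0.09, adjusted p = 4.63e-06) in CD4 cells and in CD8 cells (-0.55 ± 0.12, adjusted p = 0.00892), the last not without wild-type CD8 replicate 1 (-0.50, adjusted p = 0.109), in a fit of the compared groups alone (adjusted p = 0.0979) or with probe sets averaged (-0.13). Of the lineage markers, Cd8b1 lay between 12.33 and 12.48 on the 4 CD8 arrays and between 8.01 and 8.67 on the 6 CD4 arrays at 0 h, and Cd4 between 3.95 and 5.13 on the CD8 arrays and between 8.89 and 9.04 on those CD4 arrays. Cd8a had 5.55, 5.59 and 5.59 in Tsc1-deficient against 6.99, 6.11 and 6.16 in wild-type CD4 cells at 0 h and was called lower (-0.84, adjusted p = 0.0268).

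Replicates were not equally tight. The median SD of the members within a group was 0.254 among the stimulated Tsc1-deficient CD4 arrays, against 0.0737 among the stimulated wild-type ones and 0.0566 to 0.127 in the other 4 groups. Within the stimulated Tsc1-deficient group, replicate 3 was the lowest array for 31 of 43 members, and replicate 1 lay above the mean of the other 2 arrays by more than 0.5 for 8 members and below it by more than 0.5 for 6. The Gapdh control signal was greater at the 3′ end than at the 5′ end by 0.956 on that replicate 1 and by 0.642 on the second Tsc1-deficient CD8 array, whereas the remaining 14 arrays had 0.0241 to 0.404. Markers of other cell types and of dividing cells were followed beside the members. All 4 proliferation markers were called higher in each of the 3 genotype comparisons, and of 6 neutrophil markers 1 was in CD4 cells at 0 h, 4 at 4 h and 0 in CD8 cells. The B cell marker Cd79b was called higher in CD4 cells at 0 h (0.63) and in CD8 cells (0.99), 1 of 4 such markers each time. At 4 h 2 of 5 monocyte, macrophage or dendritic cell markers were called higher, Lyz2 (1.18) and Cd68 (0.76), and of 6 T cell markers Thy1 was higher (0.91) and Cd3g (-0.83) and Cd5 (-0.70) lower. None of 3 NK cell and 2 erythroid markers was called by limma in these 3 comparisons. The mean of 6 neutrophil markers lay between 4.84 and 6.73 on the Tsc1-deficient arrays at 0 h in CD4 cells, against 3.49 to 4.70 in wild-type ones, and the mean of 4 proliferation markers between 5.23 and 5.35, against 3.53 to 3.79. At 4 h the neutrophil mean was 5.12 to 6.51 in Tsc1-deficient against 3.33 to 3.94 in wild-type cells, and in CD8 cells it was 5.20 to 6.17 against 3.64 to 4.89. The proliferation mean was 4.85 to 5.73 against 3.57 to 3.86 at 4 h and 5.75 to 6.14 against 3.55 to 3.70 in CD8 cells. The part of these markers in the genotype results was not tested, and fewer cells of a type cannot be told apart from less RNA per cell.

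**Figure D1:**
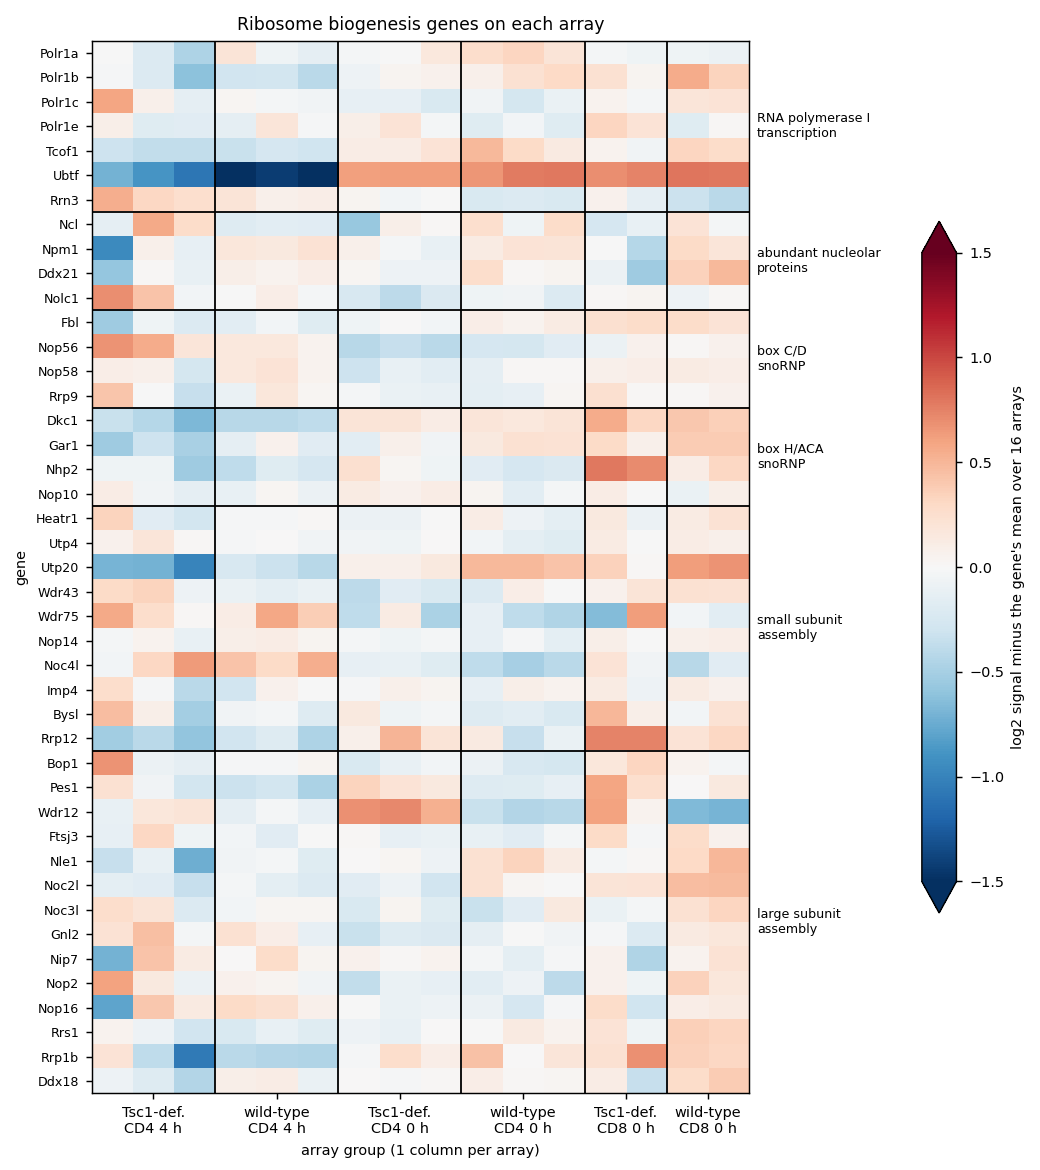
Each row is a gene, grouped by role, and each column is 1 of 16 arrays in 6 groups. Colour gives the log2 signal minus the gene's own mean over all arrays. Ubtf runs from dark blue in stimulated cells to red at 0 h. Wdr12 is red in unstimulated Tsc1-deficient cells except on the second CD8 array, where it is near its mean, and most other rows stay pale.

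The comparison of genotypes asks which of these transcripts depend on Tsc1. In unstimulated CD4 cells 2 of 43 members were called, Wdr12 higher and Utp20 lower in Tsc1-deficient cells, a share of 4.65% against 5.83% of all genes (3.96% higher and 1.87% lower). At 4 h 3 members were called (6.98% against 9.45% of all genes, of which 5.59% higher and 3.86% lower), with Ubtf higher and Utp20 and Gar1 lower. In unstimulated CD8 cells 4 were called (9.3% against 5.82% of all genes, of which 3.64% higher and 2.18% lower), with Wdr12 and Nhp2 higher and Ddx21 and Utp20 lower. Among genes above the table's median the shares were 6.71% higher and 3.19% lower in CD4 cells at 0 h, 9.43% and 6.77% at 4 h, and 6.03% and 3.72% in CD8 cells. The median change over the 43 members was -0.02 in CD4 cells at 0 h, 0.02 at 4 h and -0.05 in CD8 cells, beside 0.01, -0.00 and -0.01 over all genes. The other 37 members were not called in any of the 3 comparisons, and the 95% interval of the change lay within 0.5 of 0 for 29, 27 and 16 of the 43 members, in the same order of comparisons. In that order 26, 17 and 22 of 31 further probe sets of the members had the sign of the set used. By limma, 0, 2 and 0 were called in the opposite direction. Groups without overlap were common. Over all genes, every Tsc1-deficient array was above every wild-type one for 16.5%, 12.7% and 22.9%, in the same order of comparisons. Every one was below for 12.1%, 11.3% and 23.1%. Of the members, 20.9%, 14% and 20.9% were above and 30.2%, 9.3% and 41.9% below. Among genes above the table's median 24.7%, 18% and 28.3% were above and 17.6%, 16.3% and 26.5% below.

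**Figure D2:**
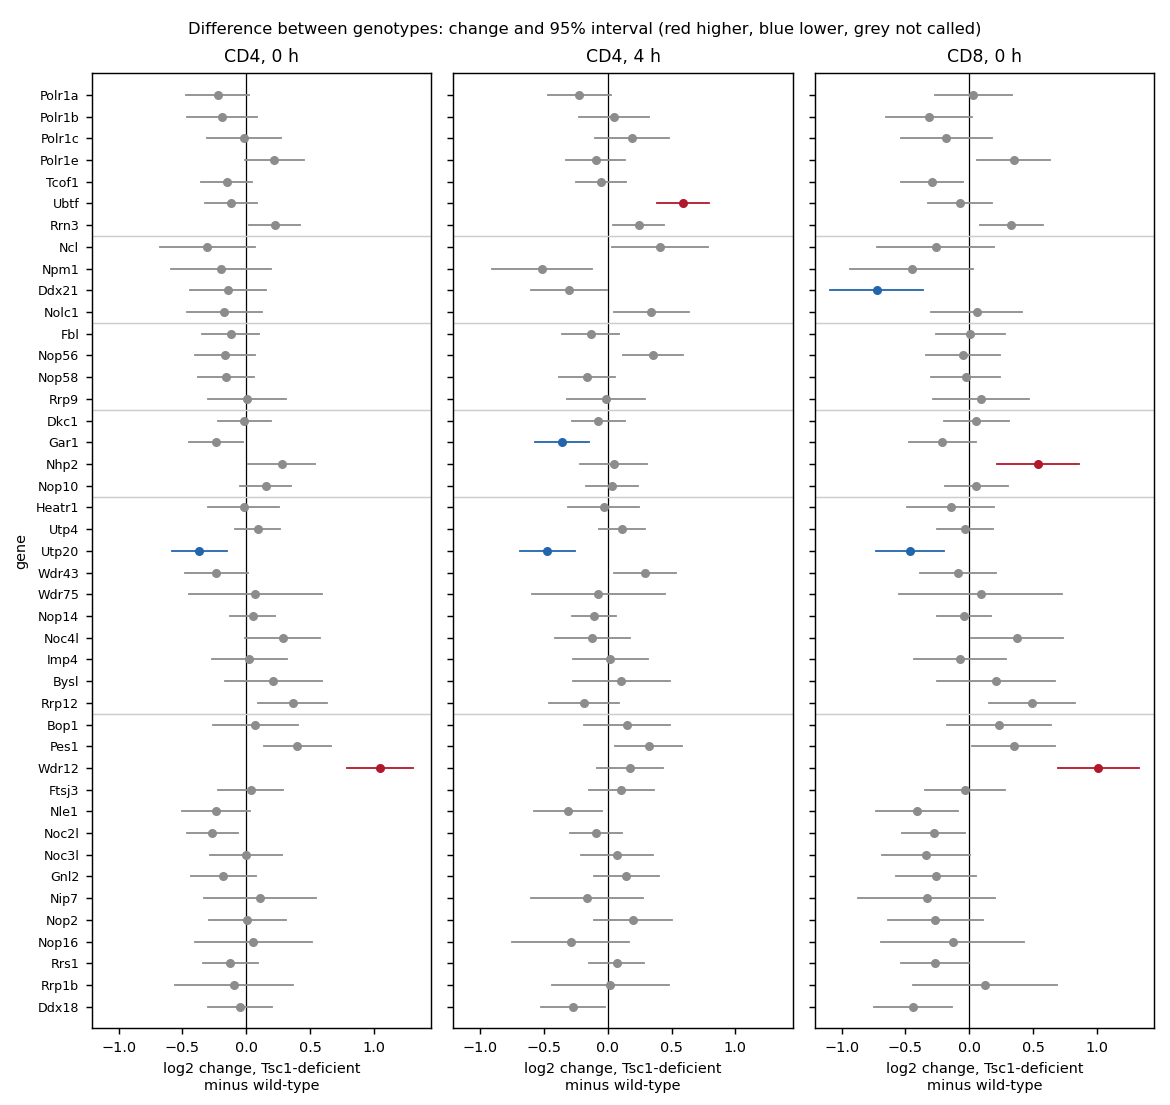
Change in log2 signal (point) and 95% interval (bar), Tsc1-deficient minus wild-type, for 43 members in 3 conditions, with grey lines between role groups. Red points are called higher and blue points lower. Utp20 is blue in all 3 panels, and Wdr12 is red in both panels of unstimulated cells.

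Among the RNA polymerase I genes, Ubtf separated the genotypes after stimulation. Its product, the upstream binding factor, holds ribosomal gene repeats in an active state and recruits the polymerase. Ubtf had signals of 7.15, 6.97 and 6.77 in Tsc1-deficient CD4 cells at 4 h and 6.37, 6.44 and 6.31 in wild-type CD4 cells at 4 h. The groups did not overlap, every Tsc1-deficient array being above every wild-type one, and the change was 0.59 ± 0.10 (1.51-fold, adjusted p = 0.00084). At 0 h the signals were 8.47, 8.49 and 8.48 in Tsc1-deficient CD4 cells against 8.52, 8.64 and 8.65 in wild-type ones, a change of -0.12 ± 0.10 that was not called. The largest subunit Polr1a, the second subunit Polr1b, Polr1c (shared with RNA polymerase III), Polr1e, Tcof1, which links transcription of the repeats to processing, and the initiation factor Rrn3 were not called in any of these 3 comparisons. Rrn3 had changes of 0.22, 0.24 and 0.33 in CD4 cells at 0 h, in CD4 cells at 4 h and in CD8 cells, with adjusted p between 0.114 and 0.219.

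Wdr12 had the largest difference between genotypes of any member at 0 h. It encodes a subunit of the PeBoW complex, which with Pes1 and Bop1 matures the large subunit. Wdr12 signals were 8.69, 8.72 and 8.54 in Tsc1-deficient CD4 cells at 0 h, against 7.67, 7.56 and 7.59 in wild-type ones. In CD8 cells they were 8.60 and 8.06 in Tsc1-deficient against 7.34 and 7.30 in wild-type cells. Neither pair of groups overlapped, and the second Tsc1-deficient CD8 array stood well below the first. Wdr12 rose by 1.05 ± 0.12 in Tsc1-deficient CD4 cells (2.06-fold, adjusted p = 4.54e-05) and by 1.01 ± 0.15 in Tsc1-deficient CD8 cells (2.02-fold, adjusted p = 0.000645), the CD8 value not being called in a fit of the compared groups alone (adjusted p = 0.0554). At 4 h the signals were 7.89, 8.17 and 8.19 in Tsc1-deficient and 7.87, 7.97 and 7.88 in wild-type CD4 cells, which overlapped, with a change of 0.17 ± 0.12 that was not called. A second Wdr12 probe set, with a lower mean, gave changes of 0.76, 0.33 and 0.80 in CD4 cells at 0 h, in CD4 cells at 4 h and in CD8 cells. The partners of Wdr12 were not called, with changes of 0.40, 0.32 and 0.35 for Pes1 and of 0.07, 0.15 and 0.23 for Bop1 in the same order.

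Utp20 was the member called in all 3 genotype comparisons. Its product is a large scaffold of the small subunit processome, which folds and cuts the 18S part of the precursor. Utp20 signals were 7.56, 7.57 and 7.64 in Tsc1-deficient CD4 cells at 0 h, against 7.98, 7.97 and 7.92 in wild-type ones. At 4 h they were 6.79, 6.78 and 6.5 in Tsc1-deficient against 7.25, 7.17 and 7.07 in wild-type CD4 cells. In CD8 cells they were 7.83 and 7.51 in Tsc1-deficient against 8.11 and 8.16 in wild-type cells. The Tsc1-deficient arrays were below the wild-type ones without overlap each time, and Utp20 fell by 0.37 ± 0.10, 0.47 ± 0.10 and 0.46 ± 0.13 (adjusted p = 0.0465, 0.00728 and 0.0397). The call in CD4 cells at 0 h was lost without any 1 of its 6 arrays (adjusted p 0.0831 to 0.152), and the call in CD8 cells without either wild-type array or without Tsc1-deficient replicate 2 (-0.49 to -0.31, adjusted p 0.159 to 0.287). The call at 4 h held without each single array and was lost in a fit of the compared groups alone (adjusted p = 0.0548). The other 9 measured small subunit factors were not called, the largest change among them being 0.49 for Rrp12 in CD8 cells (adjusted p = 0.0853).

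In the H/ACA ribonucleoproteins, which guide pseudouridylation of ribosomal RNA, Gar1 and Nhp2 were each called once. Gar1 signals at 4 h were 7.66, 7.89 and 7.71 in Tsc1-deficient and 8.06, 8.26 and 8.02 in wild-type CD4 cells, without overlap, and Gar1 fell by 0.36 ± 0.10 (adjusted p = 0.0318). Nhp2 signals in CD8 cells were 9.78 and 9.69 in Tsc1-deficient and 9.10 and 9.30 in wild-type cells, without overlap, and Nhp2 rose by 0.54 ± 0.15 (adjusted p = 0.0470). The Gar1 call was lost without wild-type replicate 1 or 2 or Tsc1-deficient replicate 1 or 3 (-0.39 to -0.29, adjusted p 0.0593 to 0.155), and the Nhp2 call without any 1 of its 4 arrays (0.44 to 0.64, adjusted p 0.0892 to 0.313). The synthase Dkc1 itself had changes of -0.01, -0.07 and 0.06 in CD4 cells at 0 h, in CD4 cells at 4 h and in CD8 cells.

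Of the abundant nucleolar proteins, Ddx21, an RNA helicase that binds ribosomal RNA and small nucleolar RNAs, was called lower in Tsc1-deficient CD8 cells. The signals were 8.38 and 7.94 in Tsc1-deficient and 8.82 and 8.96 in wild-type CD8 cells, without overlap, a change of -0.73 ± 0.17 (adjusted p = 0.0193). The lower Tsc1-deficient array is the one with the Gapdh difference of 0.642, and the call was lost without it (-0.51) or without either wild-type array (adjusted p 0.0858 to 0.181 over the 3). A second Ddx21 probe set changed by -0.09. The histone chaperone Npm1 had changes of -0.20, -0.52 and -0.45 in CD4 cells at 0 h, in CD4 cells at 4 h and in CD8 cells, and none was called. The C/D ribonucleoprotein genes, which guide ribose methylation of ribosomal RNA, were not called in any genotype comparison, the nearest being Nop56 at 4 h (0.35 ± 0.11, adjusted p = 0.0591).

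Between 0 h and 4 h of stimulation members moved in both directions, with time in culture not separated from stimulation. In Tsc1-deficient CD4 cells 15 of 43 members were called (34.9%, against 35.3% of all genes), 7 higher and 8 lower, where 13.8% of all genes were called higher and 21.5% lower. In wild-type CD4 cells 11 were called (25.6%, against 31.9% of all genes), 4 higher and 7 lower, where 12.8% of all genes were called higher and 19.1% lower. Among the 9354 genes above the table's median, where all members lie, 22.7% were called higher and 36.3% lower in Tsc1-deficient cells, and 21.3% higher and 32.7% lower in wild-type cells. The shares of members called were below these in each direction and genotype, and the median changes were -0.04 in Tsc1-deficient and 0.01 in wild-type cells, beside -0.02 and -0.01 over all genes. Array medians over all probe sets lay between 3.34 and 3.37 in the deposited values. The signals are thus relative, and a rise common to all RNA of a cell would not show. Nop56, Noc4l and Rrn3 rose and Ubtf, Utp20, Tcof1, Dkc1 and Gar1 fell in both genotypes, 7 members were called in Tsc1-deficient cells alone, 3 in wild-type cells alone and 25 in neither. No member was called in opposite directions, and a call in a single genotype is no test of a difference between them. Probe sets of 1 gene did not always match. Of 31 further probe sets of 25 members, 20 had the sign of the set used in Tsc1-deficient and 22 in wild-type cells. By limma, 5 and 1 were called in the opposite direction. In Tsc1-deficient cells every 4 h array was above every 0 h array for 18.6% of members. This held for 17.8% of all genes and 25.3% of those above the table's median. Every 4 h array was below for 23.3% of members, against 25.7% and 40%. In wild-type cells the shares above were 30.2% of members, against 19.9% and 29.6%, and those below 30.2%, against 25.4% and 40.3%.

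**Figure D3:**
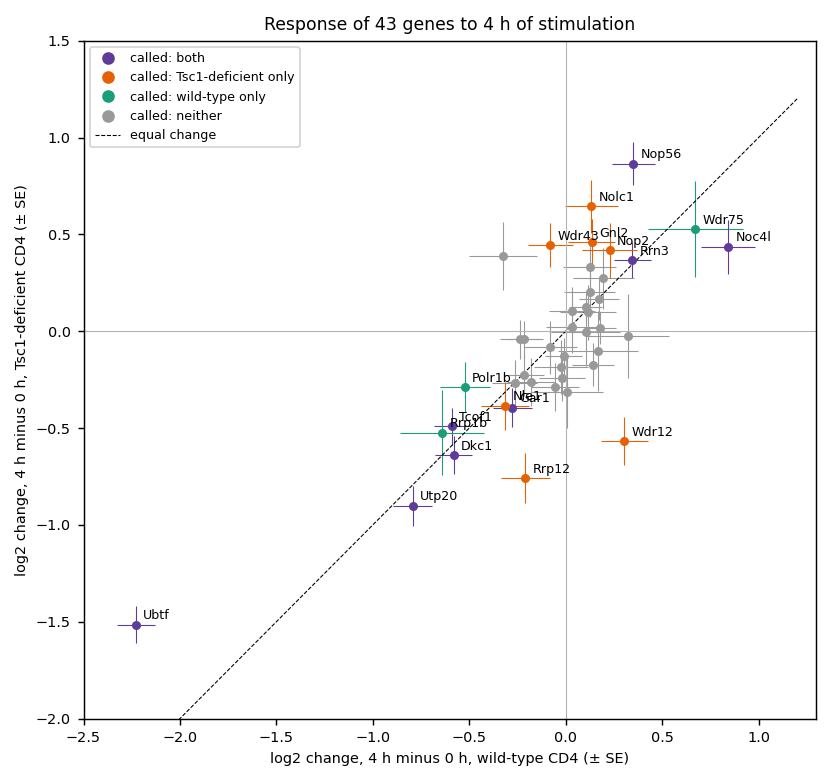
Change in log2 signal, 4 h minus 0 h, in Tsc1-deficient CD4 cells (vertical) and wild-type CD4 cells (horizontal), with standard errors, for 43 members. The dashed line marks equal change. Ubtf lies far to the lower left and above the line, and Wdr12 lies below the line at -0.57 in Tsc1-deficient and 0.30 in wild-type cells.

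The RNA polymerase I genes held the largest response of the set. Ubtf signals were 7.15, 6.97 and 6.77 at 4 h against 8.47, 8.49 and 8.48 at 0 h in Tsc1-deficient CD4 cells. In wild-type CD4 cells they were 6.37, 6.44 and 6.31 at 4 h against 8.52, 8.64 and 8.65 at 0 h. No 4 h array came near a 0 h array, and Ubtf fell by 1.52 ± 0.10 in Tsc1-deficient cells (2.86-fold lower, adjusted p = 1.95e-09) and by 2.23 ± 0.10 in wild-type cells (4.69-fold lower, adjusted p = 3.69e-11). A second Ubtf probe set changed by -1.28 in Tsc1-deficient and -1.94 in wild-type cells. Tcof1 signals were 8.23, 8.17 and 8.17 at 4 h against 8.65, 8.65 and 8.74 at 0 h in Tsc1-deficient cells, and 8.20, 8.29 and 8.24 at 4 h against 9.02, 8.82 and 8.67 at 0 h in wild-type cells. These groups did not overlap either, and Tcof1 fell by 0.49 in Tsc1-deficient and by 0.59 in wild-type cells (adjusted p = 0.000393 and 7.83e-05).

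Rrn3, the factor that makes RNA polymerase I competent to initiate, went the other way. It rose by 0.37 in Tsc1-deficient and by 0.35 in wild-type cells (adjusted p = 0.00475 and 0.00831), with signals of 7.31, 7.19 and 7.21 at 4 h against 6.88, 6.90 and 6.88 at 0 h in wild-type cells, which did not overlap. Polr1b had a change of -0.29 in Tsc1-deficient cells (adjusted p = 0.103) and fell by 0.52 in wild-type ones (adjusted p = 0.00415). Polr1c was at 9.25, 8.73 and 8.52 at 4 h and 8.53, 8.53 and 8.43 at 0 h in Tsc1-deficient cells, with replicate 1 at 4 h far above the rest. In wild-type cells it showed the smallest change of the group, with signals of 8.69, 8.63 and 8.60 at 4 h and 8.60, 8.39 and 8.56 at 0 h. It was not called in either genotype, nor were Polr1a and Polr1e.

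Of 4 abundant nucleolar proteins, 1 was called in Tsc1-deficient cells and 0 in wild-type cells by limma, beside 35.3% and 31.9% of all genes. Nolc1, a chaperone of small nucleolar ribonucleoproteins, had 8.74, 8.47 and 8.0 at 4 h against 7.80, 7.65 and 7.82 at 0 h in Tsc1-deficient cells, without overlap, and rose by 0.65 ± 0.14 (adjusted p = 0.00109). Its 2 dimmer probe sets changed by 0.56 and -0.46 there, and with all probe sets averaged the call was lost (0.25, adjusted p = 0.0827). In wild-type cells Nolc1 had 8.03, 8.14 and 8.01 at 4 h against 7.97, 7.98 and 7.83 at 0 h (change 0.13). Npm1 was at 10.76, 11.79 and 11.59 at 4 h and 11.79, 11.69 and 11.61 at 0 h in Tsc1-deficient cells, the first 4 h array alone lying far below. In wild-type cells Npm1 was at 11.89, 11.86 and 11.93 at 4 h and 11.84, 11.92 and 11.91 at 0 h, a change of 0.01 with a 95% interval from -0.39 to 0.40. Ncl, dim on this array design, had 4.05, 4.76 and 4.47 at 4 h against 3.62, 4.28 and 4.21 at 0 h in Tsc1-deficient cells. In wild-type cells Ncl had 4.00, 4.03 and 4.02 at 4 h against 4.44, 4.12 and 4.47 at 0 h, and neither change (0.39 in Tsc1-deficient and -0.33 in wild-type cells) was called.

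In the C/D ribonucleoproteins the scaffold Nop56 rose and the methyltransferase Fbl was not called. Nop56 signals were 10.40, 10.28 and 9.90 at 4 h against 9.30, 9.37 and 9.32 at 0 h in Tsc1-deficient cells. In wild-type cells they were 9.88, 9.88 and 9.77 at 4 h against 9.47, 9.46 and 9.55 at 0 h. Both pairs of groups were separate, and Nop56 rose by 0.87 ± 0.11 in Tsc1-deficient cells (1.82-fold, adjusted p = 7.10e-06) and by 0.35 ± 0.11 in wild-type cells (adjusted p = 0.0225). The wild-type call was lost without replicate 1 or 2 at either time (0.33 to 0.34, adjusted p 0.0615 to 0.0702). Fbl signals were 9.68, 10.15 and 10.01 at 4 h against 10.15, 10.21 and 10.17 at 0 h in Tsc1-deficient cells, and 10.05, 10.17 and 10.03 against 10.31, 10.26 and 10.33 in wild-type cells. Neither Fbl change (-0.23 in Tsc1-deficient and -0.22 in wild-type cells) was called. Rrp9, the U3-specific protein, had 7.26, 6.84 and 6.5 at 4 h and 6.82, 6.75 and 6.73 at 0 h in Tsc1-deficient cells, and 6.74, 7.01 and 6.88 against 6.70, 6.72 and 6.87 in wild-type cells, with overlap in both.

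All 4 H/ACA genes had negative changes in both genotypes, and 2 were called lower in each, where 21.5% of all genes were called lower in Tsc1-deficient and 19.1% in wild-type cells. Among genes above the table's median these shares were 36.3% and 32.7%. Dkc1 signals were 8.89, 8.79 and 8.55 at 4 h against 9.41, 9.41 and 9.33 at 0 h in Tsc1-deficient cells. In wild-type cells they were 8.80, 8.81 and 8.84 at 4 h against 9.40, 9.38 and 9.42 at 0 h. The groups did not overlap, and Dkc1 fell by 0.64 ± 0.10 in Tsc1-deficient and by 0.58 ± 0.10 in wild-type cells (adjusted p = 4.29e-05 and 0.00014). Gar1 fell by 0.40 in Tsc1-deficient cells, where signals were 7.66, 7.89 and 7.71 at 4 h against 8.04, 8.27 and 8.14 at 0 h (adjusted p = 0.00437). It fell by 0.28 in wild-type cells, where they were 8.06, 8.26 and 8.02 against 8.34, 8.42 and 8.41 (adjusted p = 0.0449). The wild-type Gar1 call was lost without any of 5 single arrays, all but wild-type replicate 2 at 4 h (-0.30 to -0.23, adjusted p 0.0644 to 0.163), and after median centring (adjusted p = 0.0513) or with all probe sets tested (adjusted p = 0.0555). Nop10, the smallest H/ACA protein, showed no call, with 11.09, 11.23 and 11.12 at 4 h and 11.25, 11.05 and 11.17 at 0 h in wild-type cells.

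Small subunit factors split. Noc4l, whose yeast counterpart acts with Nop14 on the particle, rose in both genotypes. It had 6.93, 7.28 and 7.61 at 4 h against 6.85, 6.86 and 6.79 at 0 h in Tsc1-deficient cells, without overlap (0.44 ± 0.14, adjusted p = 0.0202). In wild-type cells Noc4l had 7.40, 7.26 and 7.52 at 4 h against 6.59, 6.48 and 6.57 at 0 h (0.84 ± 0.14, 1.79-fold, adjusted p = 0.000119). The Tsc1-deficient call was lost without replicate 3 at 4 h (0.27, adjusted p = 0.132) or at 0 h (0.41, adjusted p = 0.0612), and in a fit of the compared groups alone (adjusted p = 0.0693). Utp20 had 6.79, 6.78 and 6.5 at 4 h against 7.56, 7.57 and 7.64 at 0 h in Tsc1-deficient cells and 7.25, 7.17 and 7.07 against 7.98, 7.97 and 7.92 in wild-type cells. It fell without overlap by 0.90 ± 0.10 in Tsc1-deficient cells (adjusted p = 1.96e-06) and by 0.79 ± 0.10 in wild-type cells (adjusted p = 9.87e-06).

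Rrp12, needed in yeast for export of both subunits, was called in Tsc1-deficient cells, with 6.07, 6.19 and 6.00 at 4 h against 6.67, 7.10 and 6.78 at 0 h, and fell by 0.76 ± 0.13 without overlap (adjusted p = 0.000134). In wild-type cells Rrp12 had 6.30, 6.4 and 6.13 at 4 h against 6.72, 6.25 and 6.49 at 0 h, which overlapped (change -0.21), and the difference of the 2 responses (-0.55) was not called (adjusted p = 0.196). Wdr43, of the subcomplex that binds the precursor during transcription, rose by 0.44 in Tsc1-deficient cells (adjusted p = 0.00506), and its relative Wdr75 rose by 0.67 in wild-type cells (adjusted p = 0.0465). The Wdr75 call was lost without any of 5 single arrays, all but wild-type replicate 1 at 4 h (0.56 to 0.77, adjusted p 0.0517 to 0.165), and with probe sets averaged or all tested (0.0502 and 0.0640). Heatr1 had the smallest change of the group in wild-type cells, with 7.97, 7.96 and 8.0 at 4 h against 8.09, 7.91 and 7.84 at 0 h and a change of 0.03. Utp4, Nop14, Imp4 and Bysl were not called in either genotype.

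Among 14 large subunit factors 4 were called in Tsc1-deficient cells, 14.3% higher and 14.3% lower beside 13.8% and 21.5% of all genes. In wild-type cells 1 was called, 7.14% lower beside 19.1% of all genes. Among genes above the table's median 22.7% were called higher and 36.3% lower in Tsc1-deficient cells, and 32.7% lower in wild-type cells. Rrp1b, a nucleolar protein, had 7.68, 7.09 and 6.42 at 4 h against 7.46, 7.74 and 7.57 at 0 h in Tsc1-deficient cells, the widest spread of any member in a group of 3, and was not called. In wild-type cells Rrp1b had 7.07, 7.04 and 7.02 at 4 h against 7.91, 7.48 and 7.66 at 0 h and fell by 0.64 ± 0.22 without overlap (adjusted p = 0.0321). This wild-type call was lost without any of 5 single arrays, all but replicate 2 at 0 h (-0.66 to -0.53, adjusted p 0.0669 to 0.130). Gnl2, a nucleolar GTPase, rose by 0.46 and Nop2, a methyltransferase of the large subunit RNA, by 0.42 in Tsc1-deficient cells (adjusted p = 0.00550 and 0.0310), and Nle1, whose yeast counterpart acts with a large ATPase on the particle, fell by 0.39 (adjusted p = 0.0222).

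Of these, Gnl2 was called under each alternative tried, whereas Nop2 was lost without Tsc1-deficient replicate 1 at 4 h (0.23) or at 0 h (0.33), adjusted p 0.138 to 0.175, and Nle1 without replicate 3 at 4 h or replicate 1 or 2 at 0 h (-0.38 to -0.22, adjusted p 0.0606 to 0.143). Both were also lost in a fit of the compared groups alone, and Nop2 with the Gapdh difference taken into account. The dimmest Gnl2 probe set, with a mean of 4.92, changed by 1.72 in Tsc1-deficient and 1.57 in wild-type cells, where the set used changed by 0.46 and 0.13. Nop16 was at 6.11, 7.30 and 7.03 at 4 h and 6.89, 6.80 and 6.82 at 0 h in Tsc1-deficient cells, where replicate 1 was far below, and at 7.19, 7.14 and 6.98 against 6.81, 6.65 and 6.88 in wild-type cells. It was not called in either. Ddx18 had the smallest change of the group in wild-type cells (-0.02), at 8.44, 8.47 and 8.26 at 4 h and 8.46, 8.38 and 8.39 at 0 h.

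**Figure D4:**
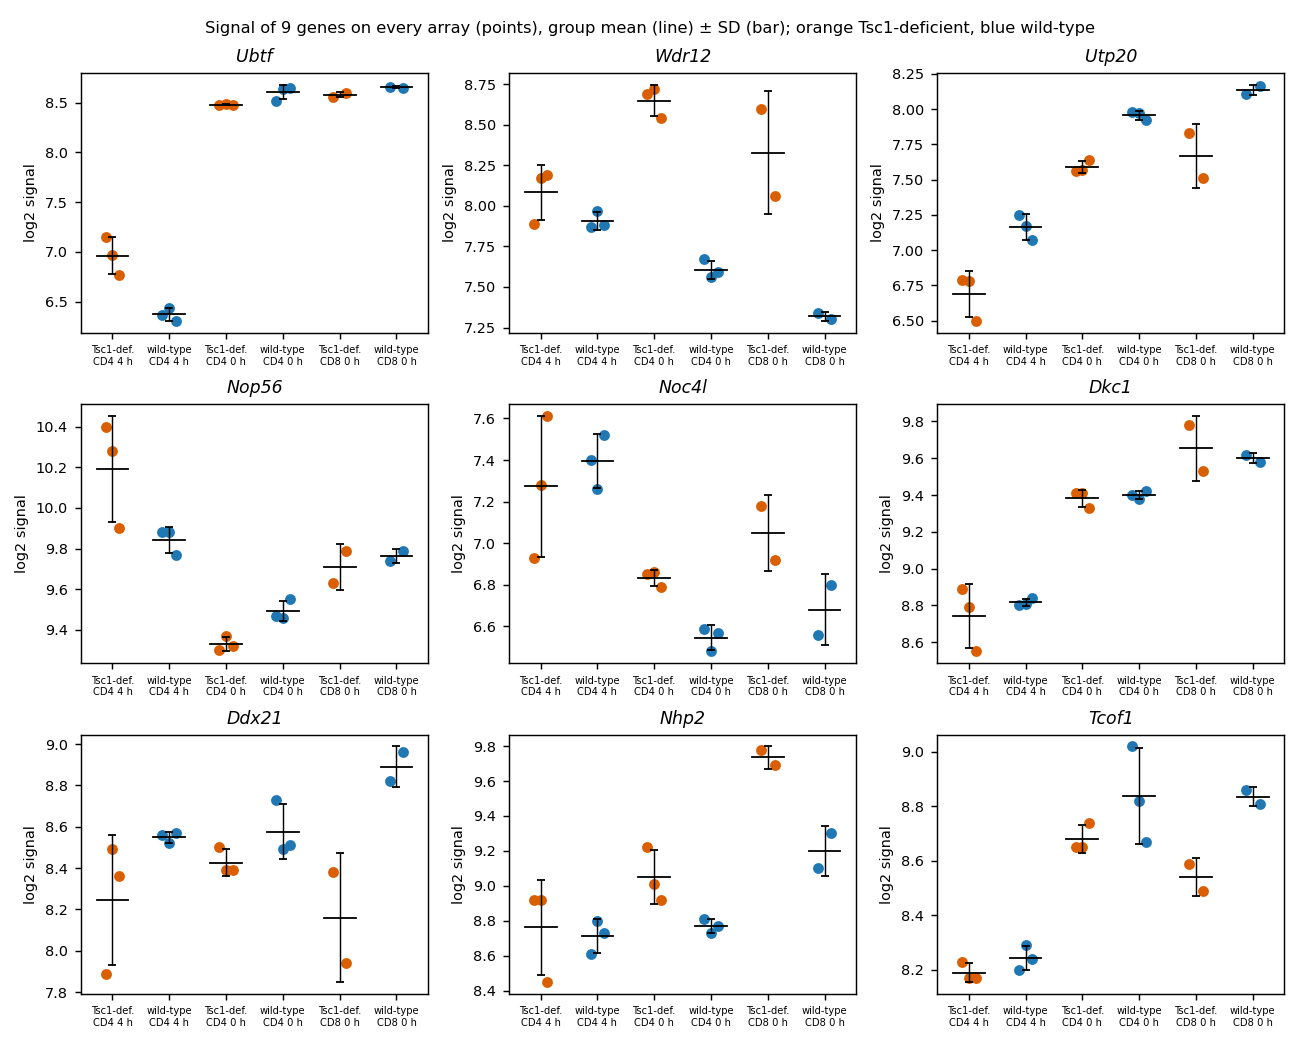
Log2 signal of 9 members on every array (points), with group means (lines) and SD (bars), Tsc1-deficient in orange and wild-type in blue. Vertical axes differ between panels and do not start at 0. Ubtf at 4 h is at 6.77 to 7.15 in Tsc1-deficient and 6.31 to 6.44 in wild-type cells, and Wdr12 is at 8.54 to 8.72 in Tsc1-deficient and 7.56 to 7.67 in wild-type CD4 cells at 0 h.

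Whether the response to stimulation itself depended on Tsc1 was tested as the difference between the 2 responses. It was called for 2 of 43 members (4.65%, against 1.2% of all genes), Ubtf higher (0.544% of all genes) and Wdr12 lower (0.661%). The Ubtf response was less negative in Tsc1-deficient cells by 0.71 ± 0.14 (adjusted p = 0.0160), a call lost with probe sets averaged (0.69, adjusted p = 0.0903). Wdr12 fell by 0.57 ± 0.12 in Tsc1-deficient cells and had a change of 0.30 ± 0.12 in wild-type cells, a difference of -0.87 ± 0.17 (adjusted p = 0.0191). The Wdr12 call was lost without wild-type replicate 2 at either time or without Tsc1-deficient replicate 1 or 2 at 0 h (-0.85 to -0.84, adjusted p 0.0557 to 0.0630). Its second probe set changed by 0.44 in Tsc1-deficient and 0.87 in wild-type cells, a difference of -0.43 (adjusted p = 0.385 over all single-gene probe sets), and with the probe sets averaged Wdr12 no longer fell in Tsc1-deficient cells (-0.06, adjusted p = 0.720). Without Tsc1-deficient replicate 3 at 4 h, 5 members were called in this test. The same omission gave 6 members in the genotype comparison at 4 h, 5 of them higher, and 1715 of all genes. Omission of Tsc1-deficient replicate 2 at 4 h gave 5 members, of which 4 lower, and 1365 of all genes. With all arrays that comparison called 3 members and 1616 of all genes. The largest positive difference by value was that of the dim Ncl (0.71), which was not called (adjusted p = 0.225).

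Between unstimulated CD8 and CD4 cells, the members were higher in CD8 cells more often than not, by small amounts. In Tsc1-deficient cells 32 of 43 changes were positive, with a median of 0.14, and in wild-type cells 38 were positive, with a median of 0.20, beside 0.00 and 0.02 over all genes. Of all 17097 genes, 8682 changes were positive in Tsc1-deficient and 9193 in wild-type cells. Every CD8 array was above every CD4 array for 18 members in Tsc1-deficient cells (41.9%, against 18.1% of all genes and 21.7% of the 9354 genes above the table's median) and for 27 in wild-type cells (62.8%, against 19.8% and 23.2%). Only a few single genes were called, 2 in Tsc1-deficient cells (4.65%, against 6.68% of all genes, 3.08% higher and 3.6% lower) and 1 in wild-type cells (2.33%, against 5.04% of all genes, 2.47% higher and 2.57% lower). The Gapdh difference between the 3′ and 5′ ends also separated the lineages. It was 0.28 and 0.64 on the Tsc1-deficient and 0.39 and 0.40 on the wild-type CD8 arrays, against 0.11 to 0.23 on the CD4 arrays at 0 h. Its part in the higher CD8 levels was not tested.

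Nhp2 had 9.78 and 9.69 in Tsc1-deficient CD8 cells against 9.22, 9.01 and 8.92 in Tsc1-deficient CD4 cells, and was higher by 0.69 ± 0.14 (adjusted p = 0.00529). Noc2l, a nucleolar protein of the large subunit pathway, had 7.73 and 7.75 in Tsc1-deficient CD8 cells against 7.37, 7.46 and 7.25 in Tsc1-deficient CD4 cells (0.38, adjusted p = 0.0411). In wild-type cells Noc2l had 8.01 and 8.02 in CD8 against 7.77, 7.57 and 7.54 in CD4 cells (0.39, adjusted p = 0.0421). None of these pairs of groups overlapped. The Noc2l call was lost without any 1 of the 5 arrays in Tsc1-deficient cells (0.33 to 0.43, adjusted p 0.0511 to 0.206), and in wild-type cells without either CD8 array or CD4 replicate 2 or 3 (0.35 to 0.40, adjusted p 0.132 to 0.212). Without Tsc1-deficient CD8 replicate 2 the median change in Tsc1-deficient cells was 0.23, and without replicate 1 it was 0.05. The difference of the genotype effects between the lineages was called by limma for 0 of 43 members (0.117% of all genes, 0.0702% higher and 0.0468% lower), with 1 member, Ddx21 (-0.58), at an unadjusted p under 0.05. By group mean, 20 members were highest in wild-type CD8 cells, 10 in Tsc1-deficient CD8 cells, 5 and 4 in Tsc1-deficient and wild-type CD4 cells at 4 h, and 2 each in Tsc1-deficient and wild-type CD4 cells at 0 h.

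**Figure D5:**
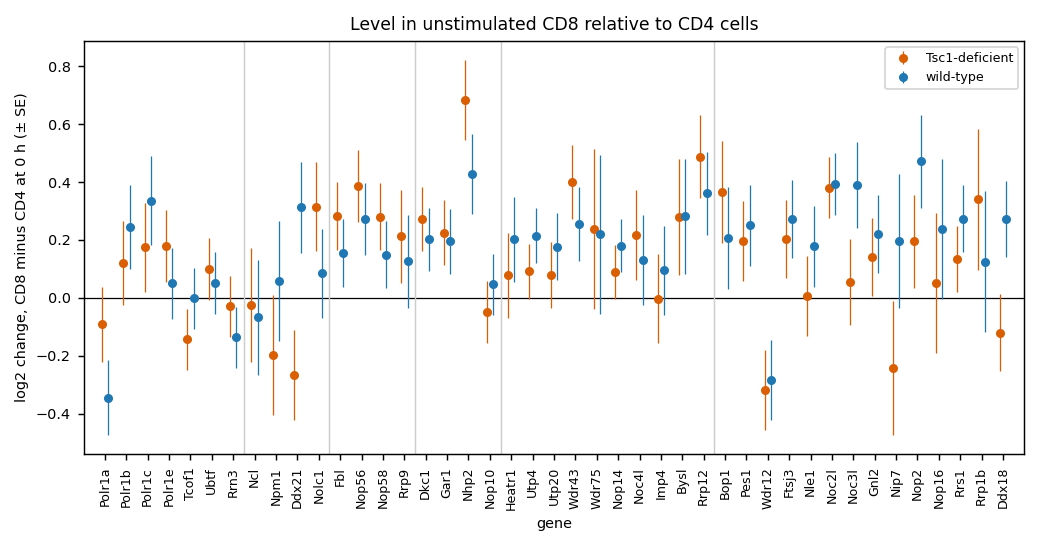
Change in log2 signal, CD8 minus CD4 at 0 h, with standard errors, for 43 members by role group, Tsc1-deficient in orange and wild-type in blue. Most points lie above 0, with 32 of 43 in Tsc1-deficient and 38 of 43 in wild-type cells, and Wdr12 lies below 0 in both.

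Other genes of the pathway were followed through 104 measured assembly factors outside the members, covering polymerase I partners, both subunits and the exosome. They too moved in both directions on stimulation, with 19 called higher and 23 lower in Tsc1-deficient cells (18.3% and 22.1%, against 13.8% and 21.5% of all genes). In wild-type cells 19 were called higher and 14 lower (18.3% and 13.5%, against 12.8% and 19.1% of all genes). Among genes above the table's median more were called, 22.7% higher and 36.3% lower in Tsc1-deficient cells. In wild-type cells these shares were 21.3% and 32.7%. The largest change was that of Kdm2b, a histone demethylase reported to repress ribosomal genes, which rose by 1.64 in Tsc1-deficient and 1.34 in wild-type cells (adjusted p = 8.05e-08 and 1.07e-06). In the same order Riok1, a kinase of late small subunit maturation, rose by 0.69 and 0.90, and the exosome subunit Exosc5 fell by 0.90 and 0.78. The higher CD8 level of the members was weaker in these 104 genes. Between CD8 and CD4 cells at 0 h, 54 changes were positive in Tsc1-deficient cells (median 0.02) and 75 in wild-type cells (median 0.10). The 13 polymerase I partners among them had medians of -0.14 and -0.01. In Tsc1-deficient against wild-type cells, 1 was called higher and 1 lower in CD4 cells at 0 h (0.962% each, against 3.96% and 1.87% of all genes). At 4 h 3 were called higher and 8 lower (2.88% and 7.69%, against 5.59% and 3.86%), and in CD8 cells 2 higher and 1 lower (1.92% and 0.962%, against 3.64% and 2.18%). Among genes above the table's median the higher and lower shares were 6.71% and 3.19% in CD4 cells at 0 h. They were 9.43% and 6.77% at 4 h and 6.03% and 3.72% in CD8 cells. Ttf1, the RNA polymerase I termination factor, was lower each time (-0.94, -1.10 and -1.11, adjusted p = 0.00189, 0.000377 and 0.00325), the CD8 call being lost in a fit of the compared groups alone (adjusted p = 0.0501). Ngdn, a small subunit factor, was higher each time (0.57, 0.57 and 0.41, adjusted p = 0.00119, 0.000873 and 0.0466), but the CD8 call was lost without either wild-type array or without Tsc1-deficient replicate 1 (0.26 to 0.42, adjusted p 0.159 to 0.277).

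Myc, the transcription factor best known for driving this programme, rose on stimulation in both genotypes. Its signals were 8.98, 9.33 and 8.5 at 4 h against 8.18, 8.06 and 7.76 at 0 h in Tsc1-deficient cells (0.94 ± 0.17, adjusted p = 0.000194). In wild-type cells they were 8.88, 8.89 and 8.77 at 4 h against 8.30, 8.18 and 8.32 at 0 h (0.58 ± 0.17, adjusted p = 0.0120). Neither pair overlapped. In CD8 cells Myc was at 8.43 and 8.09 in Tsc1-deficient against 8.97 and 9.14 in wild-type cells, a change of -0.80 ± 0.20 (adjusted p = 0.0279) that was lost without either wild-type array or without Tsc1-deficient replicate 2 (-0.89 to -0.63, adjusted p 0.105 to 0.191). Mxd4, a repressor that competes for the partner of Myc, was higher in Tsc1-deficient cells at 0 h by 0.74 in CD4 and 0.78 in CD8 cells (adjusted p = 0.000795 and 0.00369). After stimulation of Tsc1-deficient cells Mxd4 had a change of -0.43. Of 10 measured genes listed as regulators of this programme, Myc among them, Mxi1 rose most there (1.09). In those cells 50% of the 10 were called higher and 10% lower, against 13.8% and 21.5% of all genes. In wild-type cells 40% were called higher and 0% lower, against 12.8% and 19.1%.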

How the data were processed

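Single-colour Affymetrix arrays measured RNA of sorted T cells on 16 arrays in 6 groups, grouped by what the labels give as genotype, lineage and time. The deposited values are log2 signals, made by RMA in Partek 6.5 per the submitters' processing notes, and were used as deposited. Of 45141 probe sets, 28898 name 1 gene. Group means were compared with limma 3.58.1 in R 4.3.3, in 1 model of all 16 arrays (10 residual degrees of freedom, prior SD 0.146), with Benjamini-Hochberg adjustment per comparison over 17097 genes. Precision is limited by how few arrays each group has. The members and all lists were chosen with earlier results of these data known. Per-array values were given for members called between genotypes or in a difference of responses, for the 2 largest changes per role group in each stimulation comparison and the smallest in wild-type cells, with others given after their values were seen. Simulated data with known changes were used to test the fit. Alternatives covered probe set choice, filters, normalization, weights, array quality, the samples in the fit and each array left out in turn. Where this left 1 array in a group, that array was assumed to vary like the others. After group means were removed, arrays with adjacent title numbers correlated at 0.0301 to 0.0769 over 6 pairs, all of them positive. These values do not decide whether such arrays share a preparation, and the main model treated all arrays as unpaired. Figures used matplotlib 3.10.9.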

Additional observations from a re-analysis of the deposited data

Results flagged for a closer look

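By the test of the difference itself, the response to stimulation was called different between genotypes in 3 ribosome biogenesis genes. They were 2 of 43 members (4.65%) and 1 of 104 other assembly factors (0.962%), against 1.2% of all genes. Ubtf fell less in Tsc1-deficient than in wild-type cells, by 0.71 on the log2 scale (adjusted p = 0.0160). That call was lost with probe sets averaged (adjusted p = 0.0903). Wdr12 differed by -0.87 (adjusted p = 0.0191), a call lost without any 1 of 4 arrays (adjusted p 0.0557 to 0.0630). Rpf1, a large subunit factor outside the members, differed by -0.71 (adjusted p = 0.0191), with changes of 0.27 in Tsc1-deficient and 0.98 in wild-type cells, at mean levels of 3.14 and 3.75 at 4 h near the table's median of 3.36. The Rpf1 call was lost without wild-type replicate 1 or 2 at 0 h, wild-type replicate 3 at 4 h or Tsc1-deficient replicate 2 at 0 h (-0.71 to -0.63, adjusted p 0.0513 to 0.0648).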

How the results depend on the processing

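The labels give no replicate numbers that pair groups. With arrays of adjacent title numbers as a random block (consensus correlation 0.0304), the counts of called members in the 9 comparisons did not change. Across alternatives, 114 counts of called members stayed within 1.5 times the value reported and 45 did not. Counts over all genes moved too. With 1 array left out they were 589 to 704 between genotypes in CD4 cells at 0 h (997 with all arrays) and 1062 to 1715 at 4 h (1616). They were 5452 to 6070 for Tsc1-deficient (6041) and 4853 to 4938 for wild-type stimulation (5451). With each array left out in turn, members called ranged from 1 to 1 between genotypes in CD4 cells at 0 h, 2 to 6 at 4 h, 1 to 4 in CD8 cells, 13 to 20 for Tsc1-deficient and 7 to 9 for wild-type stimulation, 1 to 5 for the difference of responses, 0 to 0 for the lineage difference, and 1 to 3 in Tsc1-deficient and 0 to 1 in wild-type cells for CD8 against CD4. Median changes so ranged from -0.059 to -0.024, -0.08 to 0.12, -0.09 to -0.04, -0.10 to 0.02, -0.00 to 0.03, -0.072 to 0.11, -0.15 to 0.030, 0.052 to 0.23 and 0.18 to 0.19 in the same order. In genotype comparisons, counts were 1 with all probe sets tested and 4 with array weights in CD4 cells at 0 h, 5 with probe sets averaged and 1 with the compared groups alone at 4 h, and 2, 2 and 0 with all probe sets, array weights and the compared groups alone in CD8 cells. Over all genes the same settings gave 744 and 1937 in CD4 cells at 0 h, 1536 and 823 at 4 h, and 711, 777 and 269 in CD8 cells. The difference of responses gave 1 with probe sets averaged. For CD8 against CD4 in Tsc1-deficient cells, counts were 4 with probe sets averaged, 1 with all probe sets, 4 above the table's median, 5 with a trend and robust prior, 1 with array weights and 1 with the compared groups alone, and the median was 0.23 without the 2 arrays with a high Gapdh difference. In wild-type cells they were 3 with probe sets averaged, 0 with all probe sets, 0 with median centring, 3 with array weights, 3 without those 2 arrays, 4 with the Gapdh difference as covariate and 0 with the compared groups alone. Nip7 changed sign in Tsc1-deficient stimulation with probe sets averaged (0.33, adjusted p = 0.0107), as did Nop16 without those 2 arrays (0.33, adjusted p = 0.0229). Other causes were not tested. The low signal of Ncl, with a mean of 4.19, limits its values.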
